A study of Mus musculus with 6 samples.

Results

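The genes described here are 10 that are used to follow epithelial and mesenchymal cell states, namely the transcription factor genes Snai1, Snai2, Twist1, Twist2, Zeb1 and Zeb2, the cadherin genes Cdh1, Cdh2 and Cdh11, and the intermediate filament gene Vim. They were chosen by name as a family of related function, with earlier results of these data known. Each symbol matched 1 of the 43629 Ensembl genes in the count tables. Cardiomyocytes were isolated from the ventricles of CD-1 mouse embryos at embryonic day 13.5, pooled by litter, enriched by differential attachment and grown in medium with serum. They were transfected with 12 nM negative siRNA (an AllStars control) or with 12 nM of a DNMT1 siRNA pool, and 72 h later cells stained for VCAM1 were collected on magnetic columns for poly(A) RNA-Seq, with 3 cultures per treatment. The strain is outbred, all cultures went through the same sort, and nothing in the labels ties a culture of one treatment to a culture of the other or says that replicates came from separate isolations, so that the p values below measure the spread between these samples, which may be technical.

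Epithelial cells hold together through E-cadherin, the product of Cdh1. In an epithelial-to-mesenchymal transition the zinc finger repressors of the Snail and ZEB families and the basic helix-loop-helix factors TWIST1 and TWIST2 lower Cdh1, directly or through partners, while N-cadherin, cadherin-11 and vimentin are made instead. In the embryonic heart this program runs when endocardial cells enter the valve cushions and when epicardial cells give rise to fibroblasts and vascular support cells. Cardiomyocytes are an exception among mesenchymal markers in that they use N-cadherin at their own cell junctions.

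Reads counted on genes numbered 27852412 to 35896018 per negative siRNA culture and 13739561 to 16186310 per DNMT1 siRNA culture. The targeted gene Dnmt1 had 3447, 2760 and 2878 normalized counts with negative siRNA and 772, 786 and 666 with DNMT1 siRNA, 24.5% of the mean of the controls. Dnmt3a is checked too, because 1 label field of these 3 samples carries its name although the titles speak of DNMT1. It had means of 5453 and 6425 normalized counts (log2 fold change 0.24, edgeR quasi-likelihood test, adjusted p = 0.0919). The cardiomyocyte markers that define the labelled cell type were present, with Tnnt2 (cardiac troponin T) at 100.2 and 153 RPKM, the reads scaled to the length of the exons and to library size. Markers of other cells were present as well. The summed level of 12 fibroblast marker genes was 4706 to 7105 RPKM with negative siRNA and 3602 to 3813 RPKM with DNMT1 siRNA. The summed level of 14 cardiomyocyte marker genes was 702.1 to 974.5 RPKM and 1540 to 1957 RPKM, and that of 8 epicardial marker genes 630.2 to 746.7 RPKM and 726 to 761.2 RPKM. All 3 sums are of the cells kept by the VCAM1 sort, so that recovery in the sort also enters them, and a change in the number of cells of a type and a change in the RNA per cell cannot be told apart in such bulk samples. Negative siRNA replicate 2 stood apart from the other libraries of its group in the comparison of replicates, with a chi-square per degree of freedom of 54.46 against replicate 1 and 49.84 against replicate 3, while replicates 1 and 3 had 26.44.

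Per length of exon, Vim was by far the most abundant of the 10 genes. Its mean level with negative siRNA was 531 ± 25.3 RPKM (SD, n = 3), which ranked 31 among 15392 tested genes with a known exon length. Cdh11 followed with 87.2 ± 5.19 RPKM, Cdh2 with 40.2 ± 8.87, Snai1 with 30.8 ± 4.39 and Twist1 with 24.5 ± 3.62 (SD, n = 3 each). Zeb1 stood at 9.52 ± 0.247 RPKM, Snai2 at 8.76 ± 1.28, Zeb2 at 4.29 ± 0.20 and Twist2 at 0.66 ± 0.134 (SD, n = 3 each). Cdh1 was close to the limit of detection, at 0.0269 RPKM. In this order the control cultures of Cdh2 and Snai1 overlapped, as did those of Snai1 and Twist1 and those of Zeb1 and Snai2, and all other neighbours were separate. Levels per length depend on the exon length taken for a gene, here the union of all annotated exons, which is 4743 bases for Vim and 19942 for Zeb2.

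**Figure D1:**
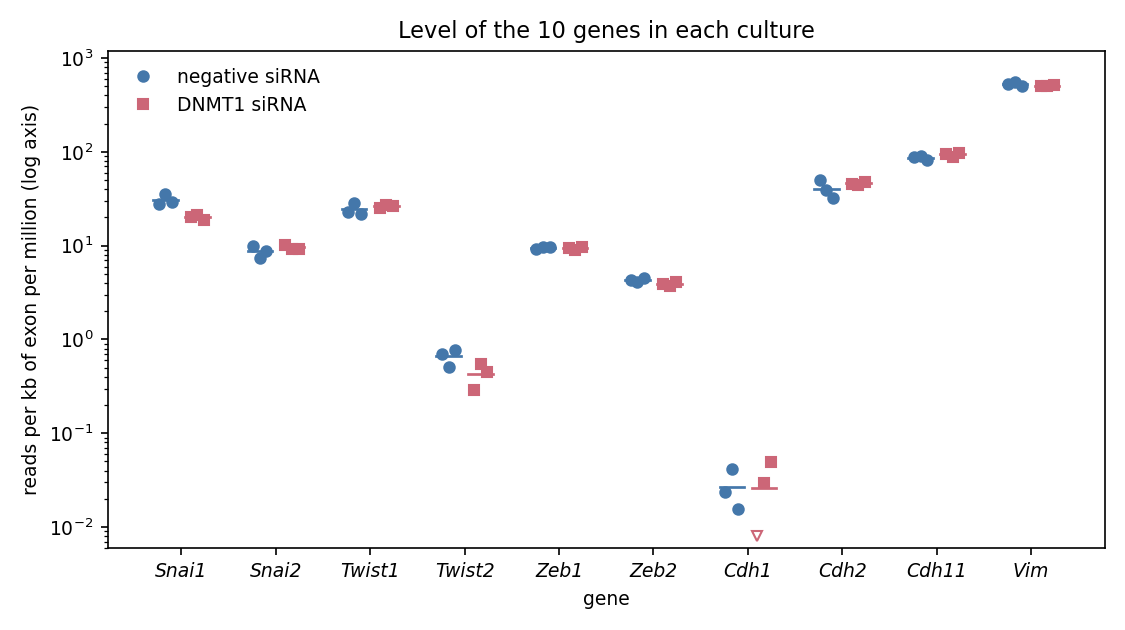
Level of each gene in RPKM (vertical log axis) in the 3 negative siRNA cultures (circles) and the 3 DNMT1 siRNA cultures (squares), with horizontal bars for the group means and an open triangle for a count of 0. Vim is highest at about 531 RPKM in the controls, Cdh1 is lowest in every culture, and Snai1 is the factor whose groups stand visibly apart.

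Of the 10 genes, 9 passed the filter on low counts and were tested. With DNMT1 siRNA 1 of them, Snai1, was down-regulated (FDR under 0.05 together with more than a 1.5-fold change), none was up-regulated, and the other 8 did not pass the test. Over all 15470 tested genes, 6.49% passed in either direction, 4.26% as up-regulated and 2.23% as down-regulated, so that 1 call among 9 genes is close to the background. The median log2 fold change was -0.0205 over the 9 genes and -0.0049 over all tested genes. In 7 of the 9 genes the absolute log2 fold change was below 0.2, as in 50.5% of all tested genes. The groups did not overlap in 2 of the 9 genes, Snai1 and Zeb2, against 36.0% of all tested genes.

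Snai1 (ENSMUSG00000042821, chromosome 2 of GRCm38, 167538195 to 167542814) encodes SNAIL, the zinc finger repressor that binds the E-boxes of the Cdh1 promoter. It had 970.4, 1260 and 1022 normalized counts in negative siRNA replicates 1, 2 and 3, and 705.3, 740.5 and 665.6 in DNMT1 siRNA replicates 1, 2 and 3. Every DNMT1 siRNA culture lay below every control, and the control group had the wider spread. The means were 1084 ± 154.6 and 703.8 ± 37.4 normalized counts (SD, n = 3 each), so that Snai1 fell to 64.9% of its control level. The log2 fold change was -0.62 (SE 0.11, 95% interval -0.87 to -0.37, edgeR quasi-likelihood test, adjusted p = 0.0112), and the exact permutation test over cultures gave p = 0.1, the smallest that 3 against 3 allow. The highest control was replicate 2, the library that stands apart. Without it the log2 fold change was -0.50 (adjusted p = 0.00304), short of the limit on fold change. Without DNMT1 siRNA replicate 1, 2 or 3 the log2 fold change was -0.65, -0.66 and -0.60 and the adjusted p was 0.0514, 0.0553 and 0.0590. Snai1 thus passed both limits in 2 of 6 fits that each left out 1 culture. Over all tested genes, fits without a DNMT1 siRNA culture called 112 to 146 down-regulated. Fits without a control called 345 to 472, and the fit with all 6 cultures 345. It passed both limits with DESeq2 and with edgeR's exact test, and over 13 alternatives the adjusted p ranged from 3.97e-08 to 0.0590.

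**Figure D2:**
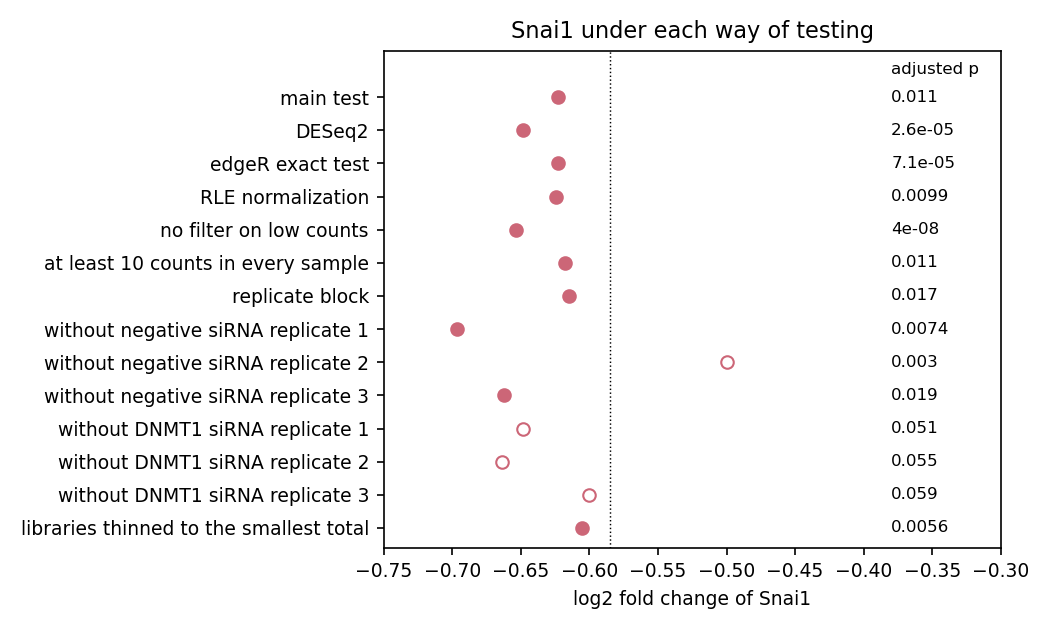
Log2 fold change of Snai1 (horizontal axis, DNMT1 siRNA against negative siRNA) under the main test and 13 other ways of testing, with the adjusted p at the right. Filled points passed both limits, open points did not, and the dotted line is a fold change of 1.5. All points lie below 0, from -0.70 to -0.50, and the 4 open points are fits that left out 1 culture.

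Since DNMT1 copies methylation of CpG sites onto new DNA strands, the stretch before the start of Snai1 is shown with that of Twist1 and Twist2, the other factors for which 1 start was given in the table of RefSeq sequences (GRCm38.p6). Each window holds the 250 bases before the annotated start, on the plus strand, written 5′ to 3′ with every CpG in capitals. The window of Snai1 is chr2:167537945-167538194, that of Twist1 chr12:33957421-33957670 and that of Twist2 chr1:91801211-91801460.
Snai1: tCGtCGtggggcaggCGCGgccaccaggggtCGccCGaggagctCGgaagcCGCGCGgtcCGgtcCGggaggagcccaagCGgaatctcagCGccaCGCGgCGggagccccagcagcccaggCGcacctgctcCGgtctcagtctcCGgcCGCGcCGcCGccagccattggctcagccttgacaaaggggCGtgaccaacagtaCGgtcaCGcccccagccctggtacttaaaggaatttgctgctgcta
Twist1: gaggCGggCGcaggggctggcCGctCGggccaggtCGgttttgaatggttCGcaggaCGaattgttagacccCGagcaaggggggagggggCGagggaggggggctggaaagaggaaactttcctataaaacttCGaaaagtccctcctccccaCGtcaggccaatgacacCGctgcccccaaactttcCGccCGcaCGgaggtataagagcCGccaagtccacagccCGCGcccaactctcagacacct
Twist2: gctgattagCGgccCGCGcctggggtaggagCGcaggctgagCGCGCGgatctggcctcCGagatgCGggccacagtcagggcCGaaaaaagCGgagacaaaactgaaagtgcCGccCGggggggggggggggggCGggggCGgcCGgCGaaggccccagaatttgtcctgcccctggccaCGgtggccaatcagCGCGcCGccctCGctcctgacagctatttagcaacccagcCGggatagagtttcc
Snai1 had 27 CpG sites in its window, Twist2 had 23 and Twist1 had 18, while the median over 32536 windows of the same length was 6 and the upper quartile 16. The Snai1 window also held 1 E-box of the kind that Snail and ZEB factors bind (CAGGTG or CACCTG, both strands searched, which are reverse complements of each other), with its first base 126 bases before the start. Such a match was present in 17.3% of all windows and in neither Twist window. The Twist2 window lies within the span of the antisense gene Gm29100. Methylation of these windows was not analysed here, and the counts say nothing of it. The table matched 5 of the 10 symbols, and Snai2, Zeb1, Cdh1, Cdh2 and Cdh11 were not used here.

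Snai2 (ENSMUSG00000022676, chromosome 16, 14705852 to 14709385) encodes SLUG, the second Snail factor, which is prominent in neural crest and valve cushion mesenchyme. It had 440.6, 328.1 and 384.1 normalized counts in the controls and 447.9, 403.8 and 408.9 with DNMT1 siRNA. The groups overlapped, and the log2 fold change was 0.13 (95% interval -0.15 to 0.41, adjusted p = 0.529). Changes beyond 1.5-fold lie outside this interval, and without negative siRNA replicate 2 the log2 fold change was 0.03. Per length, the ratio of Snai1 to Snai2 was 2.75, 4.79 and 3.32 in the controls and 1.96, 2.29 and 2.03 with DNMT1 siRNA, without overlap. Snai1 therefore remained the more abundant of the pair in all 6 cultures.

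Twist1 (ENSMUSG00000035799, chromosome 12, 33957671 to 33959829) is a basic helix-loop-helix factor of mesoderm and valve mesenchyme. Its normalized counts were 818.7, 1010 and 766.7 in the controls and 898.4, 959.1 and 948.6 with DNMT1 siRNA. All DNMT1 siRNA values fell inside the range of the controls, and the log2 fold change was 0.11 (95% interval -0.14 to 0.36, adjusted p = 0.533). Without negative siRNA replicate 2, the highest control, it was 0.24 (edgeR adjusted p = 0.0593), and without replicate 3, the lowest, 0.03. Set against Snai1 per length, Twist1 was the lower of the pair in each control culture, with 23.2, 28.6 and 21.7 RPKM beside 27.6, 35.8 and 29 RPKM for Snai1. With DNMT1 siRNA it was the higher in each culture, with 25.4, 27.1 and 26.8 RPKM beside 20, 21 and 18.9 RPKM. The order of these genes in the family thus differed between the treatments, in all 3 cultures of each.

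Twist2 (ENSMUSG00000007805, chromosome 1, 91801461 to 91848028) encodes DERMO1, a close relative of TWIST1 known from dermis and skeletal tissue. It was the scarcest of the tested genes, with 83, 51 and 68 reads in the controls and 15, 26 and 19 in the shallower DNMT1 siRNA libraries. After normalization these were 48.4, 35.2 and 52.9 counts against 20.1, 37.9 and 31.1. The groups overlapped through negative siRNA replicate 2 and DNMT1 siRNA replicate 2. The log2 fold change of -0.62 was as large as that of Snai1, but its 95% interval of -1.30 to 0.06 included 0 (adjusted p = 0.211). A change of Twist2 of up to this size was not detectable at its depth. The antisense gene Gm29100 covers 46.5% of the exon bases of Twist2, and the strand setting of the counting is not given in the sources used here. Reads of the overlap could have been counted for Twist2, counted for Gm29100, or left out of both as falling on both. Which of these holds was not tested, and the counts and level of Twist2 carry this limit.

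Zeb1 (ENSMUSG00000024238, chromosome 18, 5591860 to 5775467), which encodes a zinc finger and homeodomain repressor, was the steadiest factor. Its normalized counts were 2059, 2163 and 2143 in the controls and 2089, 2009 and 2179 with DNMT1 siRNA. The log2 fold change was -0.02 (95% interval -0.17 to 0.13, adjusted p = 0.861), the narrowest interval of the family. Its sign turned to 0.0049 without DNMT1 siRNA replicate 2. Zeb2 (ENSMUSG00000026872, chromosome 2, 44983632 to 45117395), the paralog of Zeb1 that also binds SMAD proteins, had 1849, 1775 and 1948 normalized counts in the controls and 1695, 1618 and 1765 with DNMT1 siRNA. The groups were just separate, by 1775 against 1765. The mean with DNMT1 siRNA was 91.1% of the control mean, and the log2 fold change of -0.13 did not pass the test (SE 0.07, 95% interval -0.29 to 0.03, adjusted p = 0.243). Per length, Zeb1 was 2.22 ± 0.13 times as abundant as Zeb2 in the controls and 2.4 ± 0.01 times with DNMT1 siRNA (SD, n = 3 each).

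**Figure D3:**
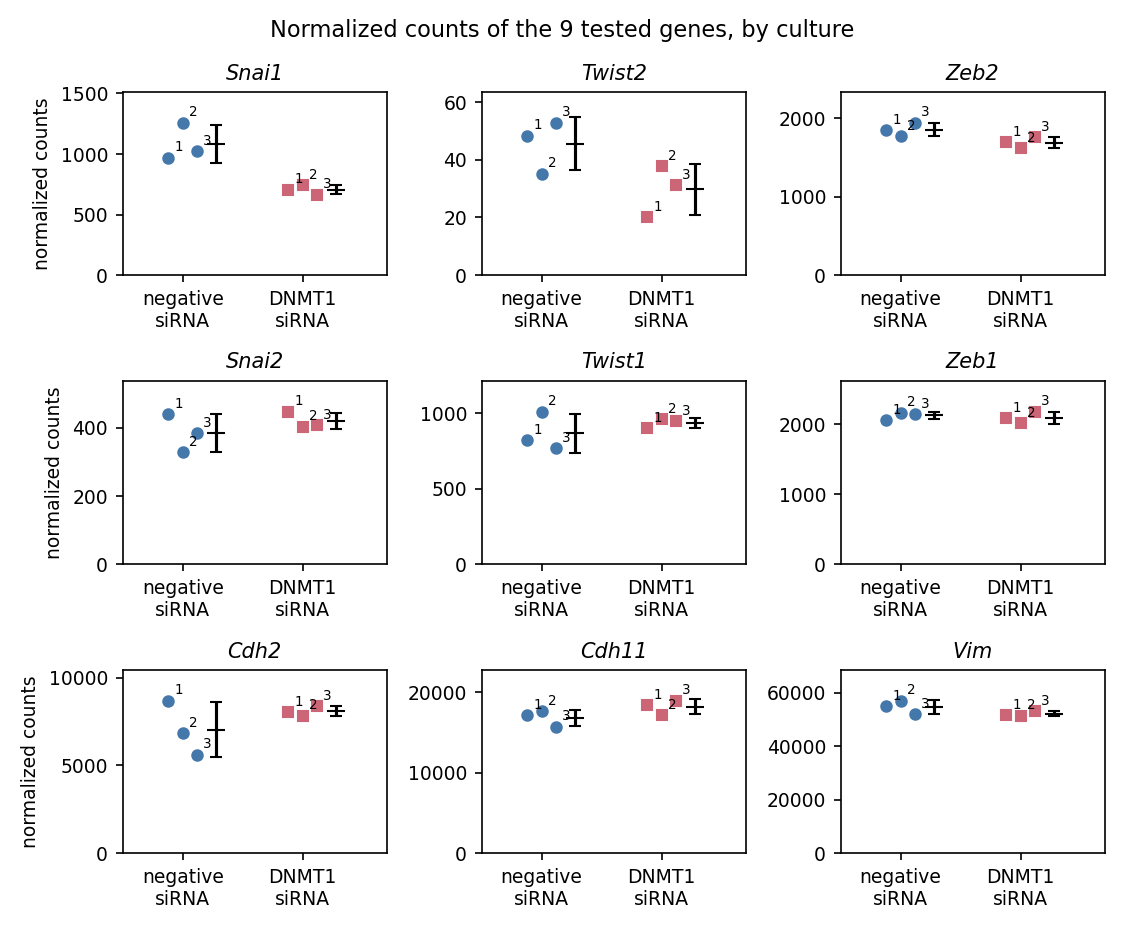
Normalized counts (vertical axes from 0) of the 9 tested genes in each culture, with the replicate number beside each point and the mean ± SD at the right of each group (circles, negative siRNA; squares, DNMT1 siRNA; n = 3 each). Snai1 shows 666 to 741 with DNMT1 siRNA against 970 to 1260 in the controls, Zeb2 is just separate, and the other panels overlap.

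Cdh1 (ENSMUSG00000000303, chromosome 8, 106603351 to 106670246), the E-cadherin gene and the classical target of the repressors above, was nearly silent under both treatments. It had 4, 6 and 2 reads in the controls and 0, 2 and 3 reads with DNMT1 siRNA, out of 13739561 to 35896018 reads on genes. Levels are given here in CPM, the unit of reads scaled to library size. In the culture with 0 reads, 3 reads would be 0.185 CPM, and its exact 95% Poisson interval reached 0.228 CPM. The highest value of all cultures was 0.226 CPM. The exact 95% Poisson intervals reached at most 0.415 CPM in the controls and 0.660 with DNMT1 siRNA, and cover counting error only. Cdh1 did not pass the filter, was not tested, and no fold change is given for it. A difference within these intervals was not detectable at this depth.

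Cdh2 (ENSMUSG00000024304, chromosome 18, 16588877 to 16809246) encodes N-cadherin, which joins cardiomyocytes at the intercalated disc and is also made by mesenchymal cells. It varied widely among the controls, with 8691, 6816 and 5608 normalized counts, and little among the DNMT1 siRNA cultures, with 8020, 7838 and 8377. The coefficient of variation was 22.1% and 3.4%. The log2 fold change was 0.20 (95% interval -0.13 to 0.52, adjusted p = 0.394). Without negative siRNA replicate 1, the highest control, it was 0.38 with an adjusted p of 0.0399 in the quasi-likelihood test, still short of a 1.5-fold change, and without replicate 3, the lowest control, it was 0.06 with an adjusted p of 0.738. Cdh11 (ENSMUSG00000031673, chromosome 8, 102632095 to 102785642) encodes the mesenchymal cadherin OB-cadherin, a product of fibroblasts and valve interstitial cells. It had 17204, 17635 and 15721 normalized counts in the controls and 18435, 17188 and 18973 with DNMT1 siRNA (log2 fold change 0.11, 95% interval -0.06 to 0.29, adjusted p = 0.379). Per length, Cdh11 exceeded Cdh2 in all 6 cultures, 1.79 to 2.54 times in the controls and 1.99 to 2.08 times with DNMT1 siRNA.

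Vim (ENSMUSG00000026728, chromosome 2, 13573927 to 13582826) encodes vimentin, the main intermediate filament of mesenchymal cells. Its normalized counts were 54989, 57131 and 51950 in the controls and 51727, 51476 and 53230 with DNMT1 siRNA, with overlap. The log2 fold change was -0.07 (95% interval -0.24 to 0.10, adjusted p = 0.574). With 32547 or more reads in every library, Vim had the most reads of the 10 genes, and its 95% interval ran from 0.848-fold to 1.07-fold.

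**Figure D4:**
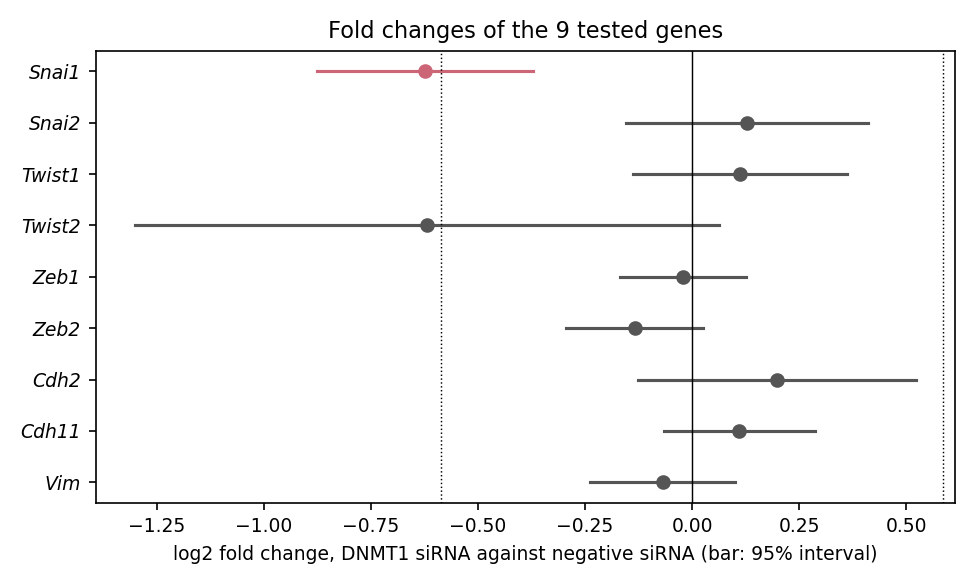
Log2 fold change of each tested gene (horizontal axis, DNMT1 siRNA against negative siRNA) with its 95% interval from the quasi-likelihood fit. Red marks the gene that passed both limits, and dotted lines mark a fold change of 1.5. The interval of Snai1 lies below 0, that of Twist2 is the widest, and 7 intervals lie inside the dotted lines.

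Other genes of the same program were read from lists of related genes, also chosen with earlier results of these data known. Of 14 genes for E proteins, Id proteins and corepressors, which pair with, block or assist the TWIST and Snail factors or control SNAIL stability, all 14 were tested and none passed both limits (median log2 fold change -0.04). The most abundant were Id3 and Id1, which sequester E proteins, with log2 fold changes of 0.06 and -0.03. In 4 of the 14 the FDR was below 0.05 with a change under 1.5-fold, and these are named here after their values were seen. Tcf3 and Tcf12, which encode the E proteins E2A and HEB, were lower with log2 values of -0.37 and -0.28, and Tcf4, which encodes E2-2, was higher with 0.31. Lats2, a Hippo pathway kinase that phosphorylates SNAIL, was higher with 0.36.

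A list of 13 other transcription factor genes held relatives of the Snail and Twist factors, together with Prrx1, Foxc2, Sox9 and Sox10 of other families. Of the 13, 8 were tested and 1 was up-regulated. This was Hand1, a basic helix-loop-helix factor of the heart, with 66.2 ± 16.1 and 114.1 ± 9.8 normalized counts (SD, n = 3 each; log2 fold change 0.79, adjusted p = 0.0457 in the quasi-likelihood test). It passed in 2 of 6 fits that left out 1 culture, and not without negative siRNA replicate 1 or any 1 of the DNMT1 siRNA replicates. The third Snail gene, Snai3, was at 9.4 ± 1 and 11.3 ± 2.9 normalized counts, and Tcf21 and Prrx1, factors of epicardial and fibroblast cells, had log2 fold changes of 0.01 and 0.05.

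Of 16 other classical cadherins 10 were tested, and 1 was down-regulated. Cdh10, a type II cadherin, went from 197.8 ± 78.9 to 88.6 ± 8.7 normalized counts (SD, n = 3 each; log2 fold change -1.16, adjusted p = 0.0329 in the quasi-likelihood test), and passed in 3 of 6 fits that left out 1 culture, but in none that left out a DNMT1 siRNA culture. The median over the 10 was 0.38. Cdh13, the lipid-anchored T-cadherin, had an FDR below 0.05 with a log2 fold change of 0.51. Cdh3, the P-cadherin gene, was the most abundant of this list at 65.6 and 61.4 RPKM, a level between those of Cdh11 and Cdh2, and had a log2 fold change of -0.10. Of the 10 catenins and cadherin partners, all tested, Arvcf was up-regulated from 845.9 ± 207.3 to 1562 ± 41.4 normalized counts (SD, n = 3 each; log2 fold change 0.89, adjusted p = 0.0101 in the quasi-likelihood test). It encodes a catenin of the p120 family that binds the cadherin tail, and passed in 4 of 6 fits that left out 1 culture, not without DNMT1 siRNA replicate 1 or 2. Beta-catenin (Ctnnb1) had a log2 fold change of -0.19 and alpha-E-catenin (Ctnna1) of 0.22, neither past the test.

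In the list of 20 epithelial genes, 10 were tested, 1 was up-regulated and 2 were down-regulated (median log2 fold change -0.10). Krt19, a keratin that is also an epicardial marker, fell by 0.82 on the log2 scale. Lsr, which encodes a protein of tricellular junctions, fell by 0.72. St14, which encodes the protease matriptase, rose by 1.02. These passed in 2, 5 and 3 of 6 fits that left out 1 culture, and none of the 3 passed without DNMT1 siRNA replicate 2. The other 10 were too low to be tested, as Cdh1 was, with mean normalized counts of 0 to 13.2 per group. Epcam, Ocln, Grhl2, Esrp1, Crb3, Cldn6 and Tjp3 had the higher mean with DNMT1 siRNA (Ocln 4.2 and 12.6, Crb3 3.0 and 13.2). Cldn4, Cldn7 and Ovol2 had the lower mean (Cldn4 10.5 and 7.3). DESeq2 gave values for all 20 genes and called 2 up-regulated and 3 down-regulated, beside 646 and 495 of all genes. The fit without a filter called 3 and 3, beside 994 and 701.

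Among 16 mesenchymal genes, all tested, 3 were down-regulated and none up-regulated, with a median log2 fold change of -0.36. Itga5, the alpha subunit of the fibronectin receptor, fell by 0.83, Ncam1, a neural cell adhesion molecule, by 0.83 and Tgfbi, a matrix protein induced by TGF-beta, by 0.71 on the log2 scale. They passed in 1, 3 and 2 of 6 fits that left out 1 culture, but in none that left out a DNMT1 siRNA culture. Without negative siRNA replicate 2, Itga5 was at -0.52 and Tgfbi at -0.46, both short of a 1.5-fold change, and Itga5 did not pass without negative siRNA replicate 3 either. Another 4 had an FDR below 0.05 with a smaller change, and these were Acta2, Sparc, Mmp14 and Axl, at -0.51, -0.32, -0.41 and -0.53. Of 12 other intermediate filament genes 10 were tested and none passed both limits (median -0.10). Lmna and Nes were the most abundant of them, with log2 fold changes of -0.28 and -0.12. Lmna and Synm, which encode lamin A and synemin, had an FDR below 0.05 with changes under 1.5-fold (-0.28 and 0.56). The largest changes of this list were those of Prph at 1.21 and Krt8 at -0.82 (edgeR adjusted p = 0.0511), neither past the main test. DESeq2, with values for all 12, called 1 up-regulated and 1 down-regulated. With edgeR's exact test or RLE factors 1 was down-regulated.

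**Figure D5:**
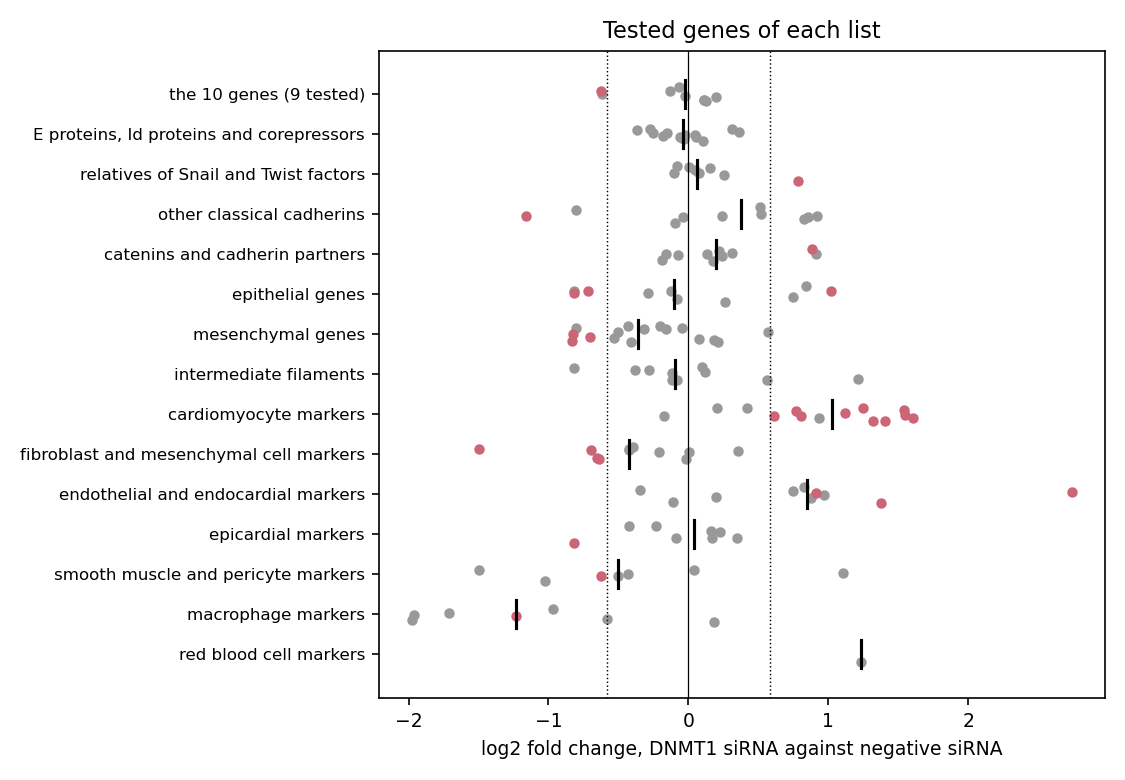
Log2 fold change (horizontal axis) of every tested gene in the family, the lists of related genes and the cell type marker lists (rows), with red points past both limits, grey points not past them, black bars for the median of each row and dotted lines at a fold change of 1.5. The family and the list of E proteins are centred near 0, while the cardiomyocyte markers have a median of 1.03 and the fibroblast markers one of -0.42.

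Markers of cell types moved with treatment beside these values. Of 14 cardiomyocyte markers 10 were up-regulated and none down-regulated (median log2 fold change 1.03), led by Ryr2, the calcium release channel, with means of 1458 and 4430 normalized counts, and by Tnni3, cardiac troponin I, and Actc1 and Myh6, cardiac actin and myosin, at 1.55, 1.54 and 1.41. The number up-regulated ran from 7 to 13 when 1 culture was left out. Of 12 fibroblast and mesenchymal cell markers 11 were tested and 4 were down-regulated, namely Dpt, with means of 162.8 and 57.4 normalized counts, and Col1a2, Col1a1 and Dcn at -0.69, -0.65 and -0.64. Between 0 and 4 of the list passed when 1 culture was left out, and without negative siRNA replicate 2 Col1a1 was at -0.42 and Col1a2 at -0.44, short of a 1.5-fold change, while Dpt was at -0.87 and passed. Thy1, a surface glycoprotein of fibroblasts, was higher with an FDR below 0.05 and a log2 fold change of 0.36, and Ddr2, a collagen receptor, was at -0.02. Among 8 epicardial markers 1 was down-regulated, which was Krt19, and the list median was 0.04. Lrrn4, Upk3b, Tbx18 and Upk1b were at 0.34, 0.23, 0.17 and 0.16. Aldh1a2, Wt1 and Msln were at -0.42, -0.23 and -0.09, and none but Krt19 passed. Msln, Upk3b and Upk1b, which encode surface proteins of mesothelium, had group means of 154 to 198 RPKM. Of 10 endothelial and endocardial markers 3 were up-regulated, Npr3, Emcn and Kdr at 2.74, 1.38 and 0.91 (summed level 18.6 to 27.8 RPKM and 35.8 to 39.9 RPKM, with 1 to 7 up-regulated when 1 culture was left out). Tek, the angiopoietin receptor gene of the same list, was lower with an FDR below 0.05 and a log2 fold change of -0.35. Of 8 smooth muscle and pericyte markers 7 were tested and Pdgfrb was down-regulated at -0.62 (summed level 2391 to 3631 RPKM and 2032 to 2123 RPKM, with 0 to 3 down-regulated when 1 culture was left out). Rgs5, a pericyte marker of that list, had means of 72.6 and 158 normalized counts without overlap and did not pass (log2 fold change 1.10, edgeR adjusted p = 0.111). Over all tested genes, 18.3% were higher without overlap. Myh11 and Cnn1 of the same list were lower, at -1.49 and -1.03, and did not pass either (list median -0.51). Of 8 macrophage markers 7 were tested and Lyz2 was down-regulated at -1.23, with a summed level of the list of 9.19 to 26.4 RPKM and 7.85 to 11.4 RPKM, and 0 to 5 were down-regulated when 1 culture was left out. C1qb, C1qa and Adgre1 were at -1.97, -1.96 and -1.71 and did not pass the main test, and Cd68 was at 0.18 (list median -1.23). DESeq2 and edgeR's exact test each called 5 of the list down-regulated. Without negative siRNA replicate 2, Lyz2 was at -1.16 (edgeR adjusted p = 0.0585). Of 7 red blood cell genes only Alas2 was tested and did not pass, and Hba-a2 had no read in any culture (summed level 0.211 to 0.537 RPKM and 0.514 to 1.69 RPKM). For Vcam1, the sorting antigen, the means were 6446 and 5389 normalized counts (log2 fold change -0.26, edgeR adjusted p = 0.148). The summed fibroblast level was lower in every DNMT1 siRNA culture than in any control, as were Snai1 and 17.7% of all tested genes. The part of cell composition in the lower Snai1 counts was not tested.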

How the data were processed

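Poly(A) RNA of 6 samples was sequenced. According to the labels and the paper's methods, the authors ran FastQC on the reads, mapped them with TopHat2 to mm10 (GRCm38), counted them per gene with HTSeq against Ensembl release 79, and deposited raw counts, 1 table per sample. Tool versions and the strand setting are not given in the sources used here. Rows that name no gene were left out. They held 53.0% to 54.2% of the listed counts in the controls and 64.1% to 71.0% with DNMT1 siRNA.

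The main test was edgeR 4.0.16's quasi-likelihood test in R 4.3.3 (TMM, filterByExpr with a minimum count of 10), without a block, adjusted by Benjamini-Hochberg over 15470 genes. A call needed both an FDR under 0.05 and more than a 1.5-fold change, the limits of the study's methods. Exact permutation tests were two-sided. Standard errors are the absolute log2 fold change over the square root of F. Normalized counts are scaled to the geometric mean of the effective library sizes, and RPKM uses those sizes and union exon lengths of GENCODE M21, which holds 97.5% of the gene identifiers. Replicate pairs differed by more than sampling noise (chi-square per degree of freedom 2.7 or more). The test was checked on simulated data with 15307 genes, where it recovered 101 of 102 genes changed by 2 on the log2 scale and 72 of 98 changed by 1, with 11 false calls. The simulation gave both groups the same dispersion for each gene, whereas Snai1 and Cdh2 had the wider spread in the controls. It held no change as small as the -0.62 of Snai1, so that recovery at that size is not known from it.

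The members and gene lists were chosen with earlier results of these data known. From each list the called genes were named, up to 4 by size, and otherwise the 2 most abundant. Further genes were named after their values were seen. These were Tnnt2, Snai3, Tcf21, Prrx1, Cdh3, Cdh13, Ctnnb1, Ctnna1, Msln, Upk3b, Upk1b, Thy1, Ddr2, Tek, Rgs5, Myh11, Cnn1, C1qa, C1qb, Adgre1, Cd68, untested epithelial genes and those that changed under 1.5-fold. The same holds for Lrrn4, Tbx18, Aldh1a2, Wt1, Krt8 and Prph. Alternatives were DESeq2 1.42.0, edgeR's exact test, RLE factors, other filters, a replicate block, no limit on fold change and leaving out each culture. Thinning all libraries to 13739561 reads was added after seeing that depth differed between treatments. Genes are not independent, and p values were not adjusted over any list alone.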

Additional observations from a re-analysis of the deposited data

Results flagged for a closer look

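The share of uniquely mapped reads that fell in no annotated exon, which no comparison above uses, was 24.4% to 32.0% in the DNMT1 siRNA libraries and 14.6% to 17.5% in the controls, and reads that fell on more than 1 gene made up 6.02% to 6.35% and 3.58% to 3.65%. Both shares were higher in every DNMT1 siRNA library, and their part in the lower Snai1 counts was not tested.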

How the results depend on the processing

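Of 117 values of the 9 tested genes under 13 alternatives, 112 kept their direction and their side of the limits, 4 (all of Snai1) fell short of a limit and 1 (Zeb1) changed sign. Fits that left out 1 culture gave log2 fold changes of -0.70 to -0.50 for Snai1 and -0.0658 to 0.0049 for Zeb1, and 0 to 1 member called lower. Over all genes, fits without a DNMT1 siRNA culture called 255 to 316 higher and 112 to 146 lower. Fits without a control called 630 to 823 higher and 345 to 472 lower, against 659 and 345 with all 6 cultures. The totals were 994 and 701 without a filter, where 31775 genes were fitted, and 1054 and 874 without the limit on fold change. Same-numbered cultures did not deviate together, with correlations of 0.0064, -0.0208 and 0.0274 for replicates 1, 2 and 3. No pair across treatments, of any numbers, was above 0.065, so that the replicate block rests on numbers alone. With the block, 513 and 285 genes passed, Snai1 stayed at -0.62 (adjusted p = 0.0173), and Hand1, Itga5, Kdr, Col1a1, Col1a2, Dpt and Myl2 did not pass (edgeR's quasi-likelihood test, adjusted p 0.0539 to 0.0793). With the total of gene counts thinned to that of the smallest library, which leaves the shares of reads off genes as they were, Snai1 was at -0.61 (adjusted p = 0.00556). The cause of the other differences was not tested. Depth limits what can be said of Cdh1 and Twist2.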

Other observations

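Antisense genes lie next to or across some of the factors. Gm29100, opposite Twist2, had 12, 11 and 11 reads in the controls and 0, 6 and 6 with DNMT1 siRNA. Zeb2os, opposite the 5′ part of Zeb2, had 15, 9 and 9 reads and 4, 2 and 2 reads. Gm10125, opposite the start of Zeb1, had 33, 35 and 41 reads and 20, 17 and 13 reads. These are raw counts of libraries that differ in depth, with the controls 2.09 times as deep by the ratio of medians, and they were not tested here.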
